A study of Homo sapiens with 32 samples.

Results

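The genes HAPLN3, MFGE8, ABHD2 and SV2B are 4 of the 24249 genes measured in MM.1S cells, a human multiple myeloma cell line. They were taken by symbol from the expression table as neighbours on band 15q26 of chromosome 15, and the set was chosen by the rise of HAPLN3, MFGE8 and SV2B with all-trans retinoic acid (ATRA) over DMSO in these same libraries. RNA was sequenced in 8 libraries. The ATRA+Cfz group (n = 1) was pulsed for 1 h with the proteasome inhibitor carfilzomib (Cfz) and then kept for 12 h with 10 µM ATRA, and the ATRA group (n = 3) was pulsed with DMSO and then given the same ATRA. The Cfz group (n = 1) was pulsed with carfilzomib and then kept in DMSO, and the DMSO group (n = 3) had DMSO at both steps. A dose of carfilzomib is not stated in the sources used here. All values come from this 1 cell line. Nothing in the labels tells separate cultures from repeat preparations, so each p-value reflects the spread among libraries and that spread may be technical. Levels are in FPM, fragments per 1000000 fragments of the library, which are not corrected for gene length, so each gene was compared with itself only. In RNA from many cells together, fewer cells expressing a gene and less RNA per cell cannot be told apart.

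Retinoic acid enters the nucleus and binds retinoic acid receptors, which sit on DNA with retinoid X receptors at paired short half-sites and switch from repression to activation of nearby genes. Retinoids are best known in blood cancer as differentiation agents of promyelocytic leukaemia. HAPLN3 is a link protein of the extracellular matrix, of a family that fastens proteoglycans to hyaluronan. MFGE8 is a secreted protein that binds phosphatidylserine on dying cells and integrins on phagocytes. ABHD2 is a serine hydrolase of lipids, and SV2B is a membrane glycoprotein of synaptic vesicles.

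On GENCODE release 29 (GRCh38), all 4 are protein-coding genes of chromosome 15. HAPLN3 spans 18.3 kb at chr15:88877288-88895626 on the minus strand. MFGE8 spans 14.7 kb at chr15:88898683-88913411, also on the minus strand. Its span lies 3.06 kb beyond that of HAPLN3 with 0 annotated genes between them, and its start is at the end away from HAPLN3. ABHD2 spans 115 kb at chr15:89087459-89202360 on the plus strand, 174 kb beyond MFGE8 with 5 annotated genes between. SV2B spans 201 kb at chr15:91099950-91301309 on the plus strand, 1898 kb beyond ABHD2 with 95 annotated genes between. HAPLN3 and MFGE8 were therefore adjacent, whereas SV2B stood apart from the other 3.

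The sequences before the start sites are shown because HAPLN3, MFGE8 and SV2B differed with ATRA and ABHD2 did so little, and a retinoid receptor half-site is a short motif that can be looked for there. They are from RefSeq (GRCh38.p14), in the direction of the gene, for the most upstream of the listed start sites, within 250 bases before it. For HAPLN3 and MFGE8 the stretch stops where the GENCODE gene begins, 82 and 32 bases before the RefSeq start. Capitals mark a half-site, which is AGGTCA or, as variants, the letters AGTTCA or the letters GGGTCA or the letters GGTTCA, searched on both strands, so that a site on the other strand reads as its complement. HAPLN3 is shown at chr15:88895627-88895794 (minus strand), MFGE8 at chr15:88913412-88913629 (minus strand), ABHD2 at chr15:89040748-89040997 (plus strand) and SV2B at chr15:91099338-91099587 (plus strand).
HAPLN3: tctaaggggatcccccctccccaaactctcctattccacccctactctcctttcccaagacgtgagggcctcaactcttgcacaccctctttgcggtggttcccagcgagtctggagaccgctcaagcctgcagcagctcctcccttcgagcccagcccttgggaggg
MFGE8: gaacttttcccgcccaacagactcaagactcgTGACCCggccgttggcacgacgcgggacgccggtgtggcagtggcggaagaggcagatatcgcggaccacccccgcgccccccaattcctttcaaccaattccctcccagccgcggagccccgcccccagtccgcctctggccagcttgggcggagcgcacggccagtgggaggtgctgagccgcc
ABHD2: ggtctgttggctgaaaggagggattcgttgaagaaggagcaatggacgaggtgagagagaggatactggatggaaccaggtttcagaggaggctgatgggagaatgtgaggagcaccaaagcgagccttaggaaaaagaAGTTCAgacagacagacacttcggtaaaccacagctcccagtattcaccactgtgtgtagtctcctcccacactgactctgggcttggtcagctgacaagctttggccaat
SV2B: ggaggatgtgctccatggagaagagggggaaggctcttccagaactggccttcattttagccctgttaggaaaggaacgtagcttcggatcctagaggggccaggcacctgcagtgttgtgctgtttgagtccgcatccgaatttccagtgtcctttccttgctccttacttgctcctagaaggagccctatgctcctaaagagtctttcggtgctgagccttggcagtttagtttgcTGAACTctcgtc

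Over the full 250 bases, HAPLN3 held 0 half-sites. MFGE8 held 1, GGGTCA on the minus strand relative to the gene, 218 bases before the start. ABHD2 held 1 copy of AGTTCA on the plus strand, 111 bases before the start, and SV2B held 1 copy of AGTTCA on the minus strand, 12 bases before it. The start site used for ABHD2 lies 46.5 kb before its GENCODE start. Any part of these half-sites in the levels of the genes was not tested. Of all 35116 RefSeq promoter stretches of this length, 33.8% hold at least 1 such half-site, so a single one is common. Counting the other listed start sites, 5 of the 9 stretches of the 4 genes held at least 1. A direct repeat of half-sites in the same orientation spaced by 1, 2 or 5 bases (DR1, DR2 and DR5) occurs in 0.0968%, 0.0313% and 0.074% of them, and in 0 of those 9 stretches. Before the most upstream start site, the stretches differed in base composition. GC content was 67.6% with 24 CpG in MFGE8, 60.4% with 11 in HAPLN3, 52.4% with 6 in SV2B and 51.2% with 4 in ABHD2. The median of all is 58% with 11. Before the other listed start sites it was 75.6% with 32 in MFGE8 and 60.8% with 19 in ABHD2. In SV2B it was 67.6% with 26, 45.2% with 8 and 51.6% with 5, so the composition depends on the start site taken. These are letters in a window, with no measurement of receptor binding.

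HAPLN3, MFGE8 and SV2B were low without ATRA and high with it, and the same held after the carfilzomib pulse. HAPLN3 stood at 98.8 FPM in the ATRA+Cfz library and at 101, 95.5 and 92.6 FPM in ATRA libraries 1 to 3. It stood at 0.656 FPM (10 reads) in the Cfz library and at 1.16, 1.45 and 1.01 FPM (20, 24 and 15 reads) in DMSO libraries 1 to 3. Every library with ATRA was high, every library without it was low, and the groups did not overlap. The mean was 96.5 ± 4.49 FPM in ATRA and 1.21 ± 0.225 FPM in DMSO (SD, n = 3 each), an 80-fold ratio.

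MFGE8 stood at 878 FPM in the ATRA+Cfz library and at 1019, 1010 and 1006 FPM in ATRA libraries 1 to 3. It stood at 17.8 FPM in the Cfz library and at 19.9, 21.2 and 23.2 FPM in DMSO libraries 1 to 3. Unlike HAPLN3 and SV2B, MFGE8 was measured without ATRA on many reads, with 271 in the Cfz library and 341 to 352 in DMSO libraries, so its ratio is the more precise one. The mean was 1012 ± 6.45 FPM in ATRA and 21.4 ± 1.65 FPM in DMSO (SD, n = 3 each), a 47.2-fold ratio.

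SV2B stood at 26.7 FPM (377 reads) in the ATRA+Cfz library and at 27.1, 26.8 and 26.7 FPM in ATRA libraries 1 to 3. It stood at 0.658 FPM (10 reads) in the Cfz library and at 0.702, 0.543 and 0.671 FPM (12, 9 and 10 reads) in DMSO libraries 1 to 3. The libraries with ATRA lay between 26.7 and 27.1 FPM, and none overlapped a library without it. Their 95% Poisson counting intervals ran from 24 to 29.8 FPM, so nothing is read from how close they lay. The mean was 26.9 ± 0.215 FPM in ATRA and 0.639 ± 0.0843 FPM in DMSO (SD, n = 3 each), a 42-fold ratio.

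ABHD2, the next member beyond MFGE8, had similar levels in every group. It stood at 370 FPM in the ATRA+Cfz library, at 383, 395 and 389 FPM in ATRA libraries 1 to 3, at 372 FPM in the Cfz library and at 382, 378 and 350 FPM in DMSO libraries 1 to 3. The mean was 389 ± 6.1 FPM in ATRA and 370 ± 17.7 FPM in DMSO (SD, n = 3 each), a ratio of 1.05. DMSO 3 was the lowest of the 8 libraries, and the lowest ATRA library exceeded the highest DMSO library by a ratio of 1.00 only. The label of the set names HAPLN3, MFGE8 and SV2B as induced by ATRA, and the levels of ABHD2 place it outside that description.

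**Figure D1:**
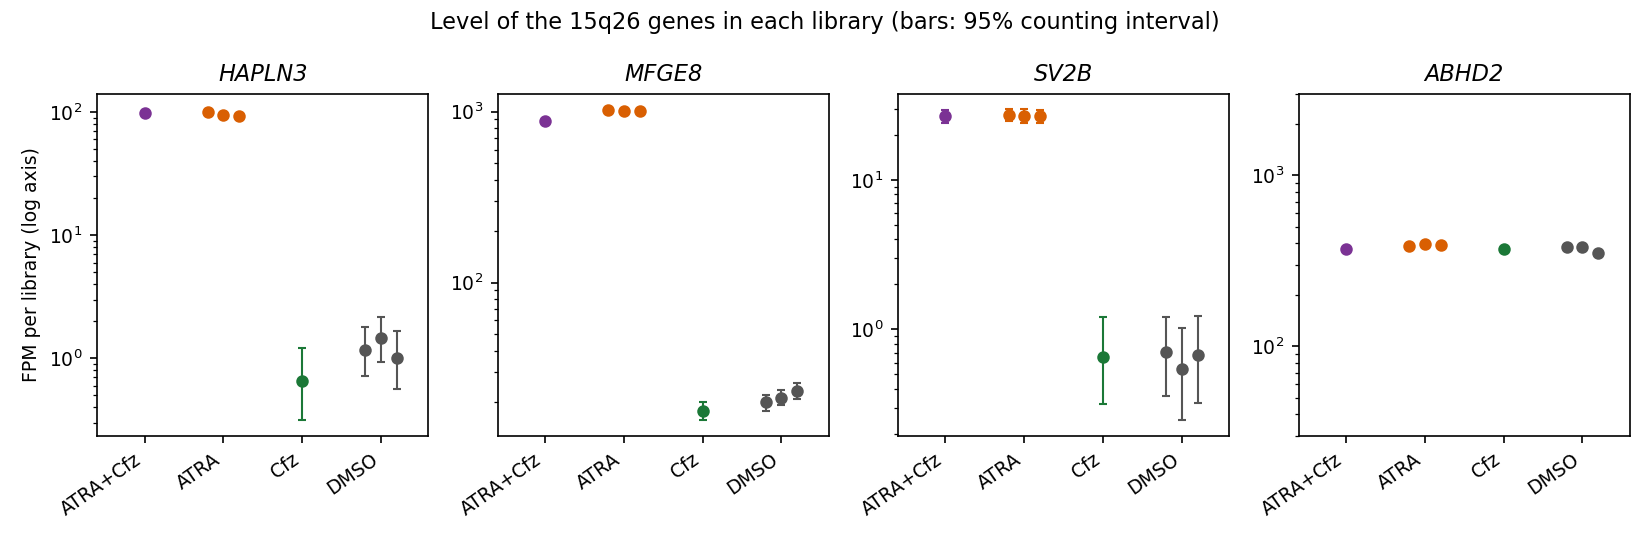
Level of each 15q26 gene in each library, in FPM on a log axis, with 1 point per library, ATRA+Cfz and Cfz having 1 library each and ATRA and DMSO 3 each, and bars for the 95% Poisson counting interval. HAPLN3, MFGE8 and SV2B are high in the 4 libraries with ATRA and low in the 4 without, while ABHD2 lies between 350 and 395 FPM in all 8.

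With 0.5 FPM added before taking log2, a step that makes the difference of low genes look smaller than it is, ATRA minus DMSO was 5.84 ± 0.104 for HAPLN3, 5.53 ± 0.0495 for MFGE8, 4.59 ± 0.117 for SV2B and 0.07 ± 0.0393 for ABHD2 (limma estimate ± SE). These differences are a description, with no test, because this comparison was used to choose the genes. Among the 15827 genes tested, HAPLN3 ranked 1, MFGE8 2, SV2B 5 and ABHD2 6074 from the highest difference, and 9 genes differed by a log2 of 4 or more. Of all genes, 48.7% were called in this comparison with limma at a Benjamini-Hochberg adjusted p under 0.05, and nothing is read from that share for the members.

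The ATRA+Cfz and Cfz libraries did not enter the comparison that chose the genes, and they repeat the ATRA contrast after the pulse. The choice was made with earlier results of these data known, so these libraries are not shown to be an independent check. HAPLN3 was 98.8 FPM in ATRA+Cfz against 0.656 FPM in Cfz, a 151-fold ratio with a 95% exact counting interval of 81.6 to 315. MFGE8 was 878 against 17.8 FPM, a 49.4-fold ratio (43.8 to 55.9), and SV2B was 26.7 against 0.658 FPM, a 40.5-fold ratio (21.9 to 85.5). The interval of HAPLN3 is wide because its lower value rests on 10 reads. ABHD2 was 370 against 372 FPM, a ratio of 0.995 (0.958 to 1.03).

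In the fit over all genes, HAPLN3 rose by a log2 of 6.42 ± 0.18 in ATRA+Cfz over Cfz (limma adjusted p = 2.1e-09), MFGE8 by 5.59 ± 0.0857 (adjusted p = 7.9e-12) and SV2B by 4.55 ± 0.203 (adjusted p = 5.7e-08). They ranked 1, 3 and 5 of 15827 genes, of which 30.4% were called in this comparison. ABHD2 differed by -0.01 ± 0.068 (adjusted p = 0.95, 95% interval -0.16 to 0.14) and ranked 7970. With 1 library in each group, the spread came from the ATRA and DMSO libraries, and the difference has no replicate check.

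The effect of the pulse itself was small beside that of ATRA. In Cfz against DMSO, HAPLN3 stood at 0.656 FPM in Cfz, below its DMSO range of 1.01 to 1.45 FPM, and fell, with a log2 difference of -0.55 ± 0.147 (limma adjusted p = 0.017). That call rests on 10 reads in the Cfz library. It was lost in tests on whole reads, with a log2 of -0.84 and adjusted p = 0.18 in edgeR and -0.82 and adjusted p = 0.28 in DESeq2, and lane 3 alone gave 0.41 (adjusted p = 0.52). MFGE8 stood at 17.8 FPM in Cfz against 19.9 to 23.2 FPM in DMSO and fell, with a log2 difference of -0.26 ± 0.07 (limma adjusted p = 0.019), a call lost with median-ratio scaling (-0.20, adjusted p = 0.086), edgeR (-0.23, adjusted p = 0.12) and DESeq2 (-0.21, adjusted p = 0.23). Of all genes, 24.9% were called in Cfz against DMSO, with 7.94% higher and 17.0% lower. The higher ones were 31.8% of these calls, but 47.8% with median-ratio scaling, 42.2% with edgeR and 53.1% with DESeq2.

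SV2B differed by 0.03 ± 0.166 in Cfz over DMSO (limma adjusted p = 0.93, 95% interval -0.34 to 0.39), with 0.658 FPM in Cfz inside its DMSO range. ABHD2 differed by 0.01 ± 0.0555 (adjusted p = 0.94, interval -0.11 to 0.13). The SV2B difference rests on 9 to 12 reads per library, where small changes could not be detected. Its 95% Poisson counting interval in Cfz was 0.315 to 1.21 FPM, and single lanes gave log2 differences from -0.64 to 0.90. These lanes went beyond the limma interval, so SV2B was not shown to be unchanged to within it. The interval of ABHD2 is the narrower one.

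In cells given ATRA, the pulse left HAPLN3 at 98.8 FPM in ATRA+Cfz, within the ATRA range of 92.6 to 101 FPM, a log2 difference of 0.03 ± 0.147 (limma adjusted p = 0.89, interval -0.29 to 0.36). SV2B differed by -0.01 ± 0.166 (adjusted p = 0.97, interval -0.37 to 0.35) and ABHD2 by -0.07 ± 0.0555 (adjusted p = 0.37, interval -0.19 to 0.05). MFGE8 was the exception, at 878 FPM in ATRA+Cfz against 1006 to 1019 FPM in ATRA, and fell, with a log2 difference of -0.21 ± 0.07 (adjusted p = 0.045). This call was lost in 12 of 17 alternative settings, edgeR among them (-0.16, adjusted p = 0.063), although the direction was the same in each. Of all genes, 30.9% were called in ATRA+Cfz against ATRA, with 10.6% higher and 20.2% lower, and the higher ones were 34.4% of these calls, but 45.3% with edgeR. This comparison shares the ATRA libraries, and Cfz against DMSO the DMSO libraries, with the one that chose the members.

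The order of levels was the same at its low end for HAPLN3 and MFGE8, where Cfz was below DMSO, and differed at its high end, where ATRA+Cfz was inside the ATRA range for HAPLN3 and below it for MFGE8. For SV2B, neither ATRA+Cfz and ATRA nor Cfz and DMSO differed beyond their spread. The ATRA difference after the pulse minus that without it was 0.59 ± 0.207 for HAPLN3, 0.05 ± 0.0989 for MFGE8, -0.04 ± 0.234 for SV2B and -0.08 ± 0.0785 for ABHD2 on the log2 scale, given with no test. Single lanes moved this value widely. In lanes 1 to 4 alone it was 0.52, 1.30, -0.31 and 1.33 for HAPLN3, 0.12, 0.13, -0.21 and 0.19 for MFGE8, 0.53, 0.75, -1.09 and 0.35 for SV2B and -0.14, -0.03, 0.04 and -0.19 for ABHD2, so lane 3 had the other sign from lanes 1, 2 and 4 for each gene.

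**Figure D2:**
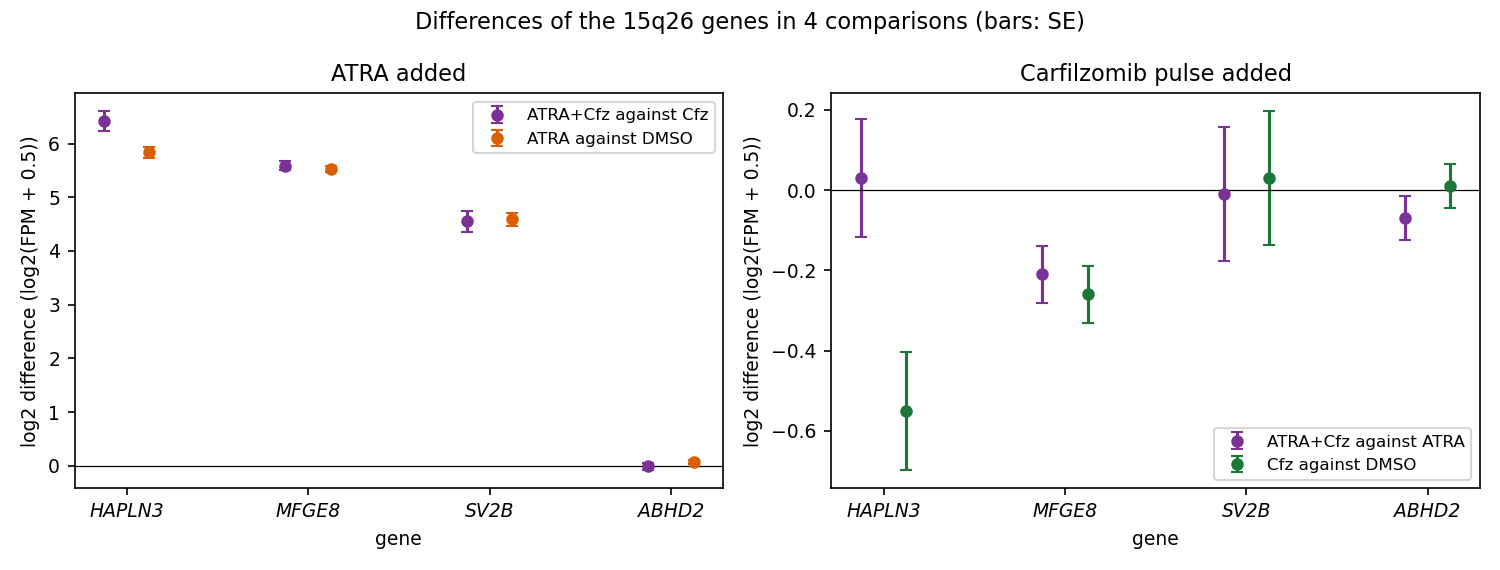
Log2 difference of each gene with its SE, on the log2(FPM + 0.5) scale, with ATRA+Cfz over Cfz and ATRA over DMSO on the left and ATRA+Cfz over ATRA and Cfz over DMSO on the right, whose axis is narrower. The ATRA differences of HAPLN3, MFGE8 and SV2B lie between 4.55 and 6.42 with and without the pulse, and ABHD2 is near 0 in all 4 comparisons.

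The 4 lanes of a library show how thin the low values are. In the Cfz library, lanes 1 to 4 held 3, 0, 6 and 1 reads of HAPLN3 and 1, 0, 7 and 2 reads of SV2B. Lane 3 thus supplied most reads of both genes. A chi-square test of lanes was made for each of the 4 genes in each of the 8 libraries, 32 tests in all, an approximation where reads are few. An unadjusted p under 0.05 was found in 4, SV2B and HAPLN3 in Cfz, SV2B in ATRA 1 and ABHD2 in DMSO 1, and an adjusted p under 0.05 in 0, the smallest being 0.27 for SV2B in Cfz (Benjamini-Hochberg). The lanes were therefore not shown to differ by more than sampling. In MFGE8 the lanes of the Cfz library held 68, 59, 78 and 66 reads.

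**Figure D3:**
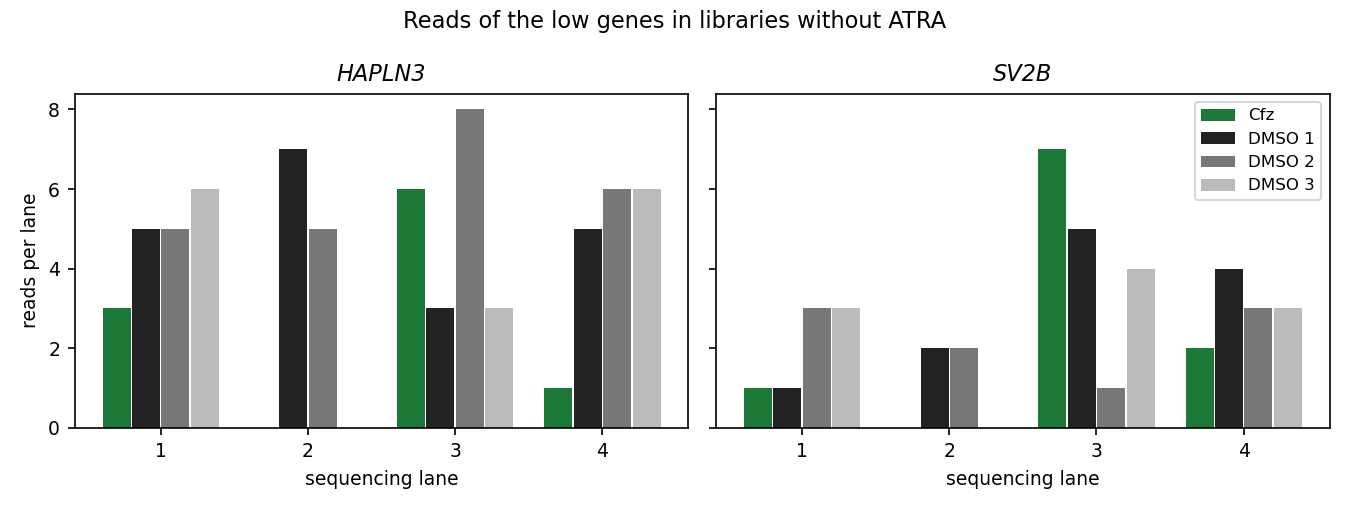
Reads per sequencing lane of HAPLN3 and SV2B in the libraries without ATRA, with 1 bar per library and lane for Cfz and DMSO 1 to 3. No lane holds more than 8 reads of either gene, and lane 3 of the Cfz library holds 6 of 10 for HAPLN3 and 7 of 10 for SV2B.

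The genes around HAPLN3, MFGE8 and SV2B had smaller differences. From 500 kb before HAPLN3 to 500 kb after SV2B, 66 other genes were in the table and 40 passed the filter of a mean of 0.5 FPM. In ATRA against DMSO, 14 of the 40 (35%) rose, 10 (25%) fell and 16 did not pass the test, with a median log2 difference of 0.08. Over all genes tested, 21.3% rose and 27.4% fell, with a median of -0.03. The log2 differences of the neighbours ran from -1.03 to 1.34, against 4.59 to 5.84 for HAPLN3, MFGE8 and SV2B. In ATRA+Cfz against Cfz, 9 of the 40 rose and 10 fell, where 12.8% and 17.6% of all genes did. Of the 24 neighbours called with ATRA, 19 overlap another gene of the table. Neighbours that were not called overlap others too, such as POLG with FANCI and VPS33B with AC068831.7. Nothing is therefore read from that count about the calls. The overlap is of whole gene spans. Some partners were near the floor, such as AC018946.1 in IQGAP1 (0.217 against 286 FPM in ATRA). Others were expressed, such as GDPGP1 and CIB1 (8.44 and 52.4 FPM in ATRA). The labels do not give the strand setting of the counting, and how far overlapping genes share reads was not tested.

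Between MFGE8 and ABHD2, the non-coding gene AC013565.1 was the only gene tested. It stood at 1.95, 2.02 and 1.53 FPM in ATRA libraries 1 to 3 and at 0.643, 1.09 and 0.736 FPM in DMSO libraries 1 to 3, with 11 to 31 reads per library. It rose by a log2 of 0.83 ± 0.188 (limma adjusted p = 3.3e-03), and by 1.26 ± 0.326 in ATRA+Cfz (3.04 FPM) over Cfz (0.982 FPM, adjusted p = 0.013). On GENCODE it ends 4.64 kb before ABHD2 and lies 128 kb from MFGE8. RefSeq lists a start of ABHD2 46.5 kb before the GENCODE one and 225 bases before AC013565.1 on the same strand, so gene totals cannot tell its reads from a longer ABHD2 transcript. The pseudogene AC124068.1, inside ABHD2 on the other strand, rose by 0.57 ± 0.142 (adjusted p = 5.7e-03) at 13.7 FPM in ATRA and 9.09 FPM in DMSO, and its reads may also belong to ABHD2.

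Before HAPLN3, the nearest tested genes were ISG20, an exonuclease induced by interferon, AEN, an apoptosis-enhancing nuclease, and DET1. ISG20 stood at 58.3, 57.1 and 52 FPM in ATRA libraries 1 to 3 and at 33.7, 30.8 and 29.3 FPM in DMSO libraries 1 to 3. It rose by a log2 of 0.82 ± 0.0629 with ATRA (limma adjusted p = 7.5e-07), and, unlike HAPLN3, it was also higher in Cfz than in DMSO by 0.60 ± 0.089 (adjusted p = 6.5e-04). AEN rose by 0.18 ± 0.0518 (adjusted p = 0.015), and DET1, a symbol that stands on 2 gene IDs and is therefore uncertain, differed by 0.11 ± 0.0934 (adjusted p = 0.36).

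After ABHD2, the nearest tested genes were FANCI, POLG and TICRR. FANCI, of the Fanconi anaemia pathway of DNA repair, fell, with a log2 difference of -0.71 ± 0.0359 (limma adjusted p = 3.1e-08), to 168 ± 3.68 FPM in ATRA against 274 ± 7.86 FPM in DMSO (SD, n = 3 each). TICRR, a regulator of replication origins, fell, with a difference of -1.03 ± 0.0671 (adjusted p = 2.1e-07), while POLG, the mitochondrial DNA polymerase, differed by -0.14 ± 0.0637 (adjusted p = 0.093). Further along, the helicase BLM (-1.02 ± 0.0553) and PRC1, a regulator of cytokinesis (-0.86 ± 0.0552), fell, both with adjusted p = 1.9e-07 or less. Also lower were the scaffold protein gene IQGAP1 (-0.70), CRTC3, a coactivator of CREB (-0.68), and AC068831.7 (-0.76), which overlaps PRC1.

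Among the same stretch, GDPGP1 rose most, at 8.44 ± 0.404 FPM in ATRA and 3.07 ± 0.693 FPM in DMSO (SD, n = 3 each), a log2 of 1.34 ± 0.15 (limma adjusted p = 1.7e-05). CIB1, a calcium and integrin binding protein whose gene overlaps GDPGP1 on the other strand, rose by 1.16 ± 0.0658 (adjusted p = 6.8e-08). SEMA4B, a semaphorin, rose by 0.92 ± 0.0626 (adjusted p = 2.9e-07), and AP3S2, an adaptor subunit of vesicle transport, by 0.63 ± 0.054 (adjusted p = 2.0e-06).

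Beside SV2B, none of the 3 nearest tested genes on either side, by order of start position, rose. PRC1, which fell, ends nearer to SV2B (at 90995629) than PRC1-AS1 does (at 90988624). On the near side, AC068831.7 fell, PRC1-AS1 differed by -0.52 ± 0.201 (limma adjusted p = 0.0503) and VPS33B by 0.14 ± 0.122 (adjusted p = 0.36). On the far side, beyond 500 kb, the transporter SLCO3A1 fell (-0.55 ± 0.0631, adjusted p = 2.2e-05), as did the sialyltransferase ST8SIA2 (-1.67 ± 0.0868, adjusted p = 3.7e-08), and LINC00930 differed by 0.20 ± 0.216 (adjusted p = 0.48).

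**Figure D4:**
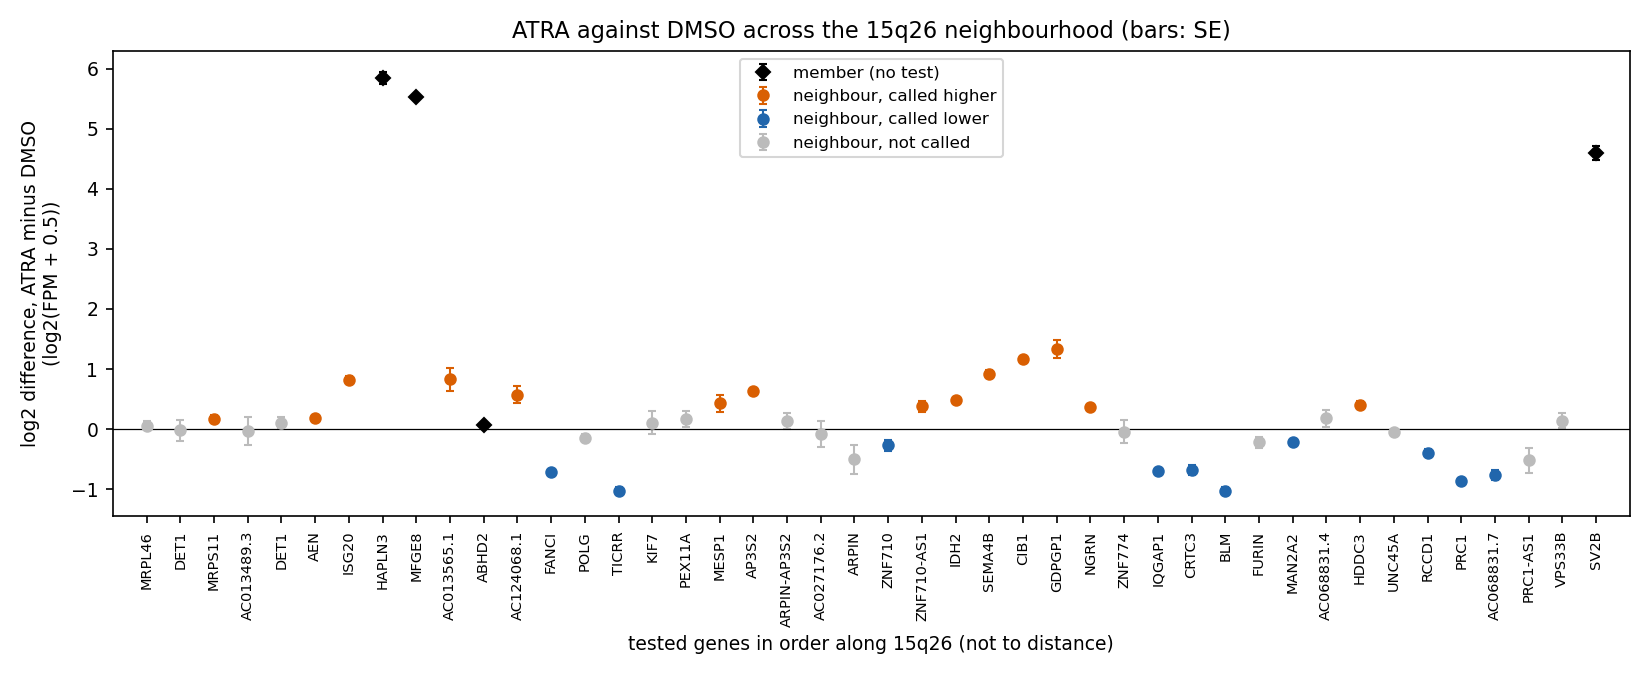
Log2 difference of ATRA over DMSO with its SE, on the log2(FPM + 0.5) scale, for the 40 tested neighbours (circles, coloured by call) and the 4 members (diamonds, no test) in gene order, with distances not drawn. HAPLN3, MFGE8 and SV2B stand at 4.59 or more, while the neighbours lie between -1.03 and 1.34.

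Genes that share a role with each member were compared next, with the members left out. For HAPLN3, 10 of 26 listed genes of hyaluronan and its binding proteins were tested, of which 1 rose with ATRA, 3 fell and 6 did not pass the test (median log2 difference 0.04), where 21.3% of all genes tested rose and 27.4% fell (median -0.03). The count of 1 was 4 without DMSO 2, and 2 with median-ratio scaling or with edgeR. The brain proteoglycan BCAN rose by 0.53 ± 0.112 (limma adjusted p = 2.2e-03), at 12.4 ± 0.88 FPM in ATRA and 8.53 ± 1.32 FPM in DMSO (SD, n = 3 each). The main hyaluronan receptor CD44 fell (-0.46 ± 0.0537, adjusted p = 2.4e-05), to 653 ± 3.9 FPM in ATRA against 901 ± 77.7 FPM in DMSO. The hyaluronan-binding HMMR (-0.40 ± 0.0592) and UGDH (-0.35 ± 0.0746), which makes a precursor of hyaluronan, also fell. The cartilage proteoglycan ACAN, whose gene lies in the same neighbourhood, was at or under 0.174 FPM in every library, no more than 3 reads.

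For MFGE8, 20 of 30 listed genes of phosphatidylserine recognition and exposure were tested, of which 3 rose with ATRA, 10 fell and 7 did not pass the test (median -0.20), beside 21.3% higher and 27.4% lower over all genes. GAS6, another bridging protein that binds phosphatidylserine, fell (-1.01 ± 0.0649, limma adjusted p = 1.9e-07), to 207 ± 6.62 FPM in ATRA against 419 ± 45.4 FPM in DMSO (SD, n = 3 each). Of its listed receptor kinases, MERTK rose by 0.47 ± 0.0654 (adjusted p = 1.0e-04) and TYRO3 fell (-0.26 ± 0.0593, adjusted p = 3.3e-03). AXL differed by -0.24 ± 0.207 (adjusted p = 0.38). Of the integrin subunits that bind MFGE8, ITGAV fell (-0.49 ± 0.0634, adjusted p = 5.3e-05), and ITGB5 stood at 144 FPM in ATRA and 146 FPM in DMSO. The scramblase ANO6, which exposes phosphatidylserine, fell (-0.73 ± 0.0582, adjusted p = 1.1e-06), and the chaperone CALR rose by 0.22 ± 0.0619 (adjusted p = 0.011). The rise of MFGE8 thus stood beside a fall of the bridging molecule GAS6 in the same libraries.

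For SV2B, 21 of 30 listed genes of the SV2 family and of vesicle exocytosis were tested, of which 6 rose with ATRA, 5 fell and 10 did not pass the test (median -0.01), beside the same 21.3% and 27.4% over all genes. Without ATRA 3, 3 genes rose. Its paralog SV2C moved the other way, at 4.06 ± 0.288 FPM in ATRA and 6.94 ± 0.73 FPM in DMSO (SD, n = 3 each), a log2 of -0.70 ± 0.122 (limma adjusted p = 5.1e-04). SYT2, a calcium sensor of vesicle fusion, rose by 1.73 ± 0.207 (adjusted p = 3.0e-05), at 2.35 FPM in ATRA and 0.346 FPM in DMSO, and SYT11 rose by 1.10 ± 0.134 (adjusted p = 3.5e-05). The SNARE protein SNAP29 rose by 0.27 ± 0.0426, while RAB27A (-0.57 ± 0.0353) and STXBP2 (-0.30 ± 0.05), which act in secretion of granules, fell. Neuronal markers summed to 28 FPM in ATRA+Cfz, 23.1 to 27.7 FPM in ATRA, 20.2 FPM in Cfz and 19.5 to 25.4 FPM in DMSO, from SYT1 and MAP2, and their part in the level of SV2B was not tested.

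For ABHD2, 20 of 24 listed ABHD and monoacylglycerol hydrolase genes were tested, of which 7 rose with ATRA, 7 fell and 6 did not pass the test (median -0.02), again beside 21.3% and 27.4%. Without ATRA 2, 4 genes rose. ABHD12, a lysophosphatidylserine lipase, rose by 0.91 ± 0.0372 (limma adjusted p = 5.5e-09), at 260 ± 4.36 FPM in ATRA and 138 ± 4.93 FPM in DMSO (SD, n = 3 each). ABHD6 rose by 0.94 ± 0.124 and ABHD4 by 0.43 ± 0.0469. FAAH, which degrades anandamide, fell (-0.50 ± 0.0606), as did DAGLB, a diacylglycerol lipase (-0.57 ± 0.0795), and ABHD5, a coactivator of triglyceride lipase (-0.48 ± 0.06). ABHD2, at 0.07, lay in a list whose genes moved in both directions.

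**Figure D5:**
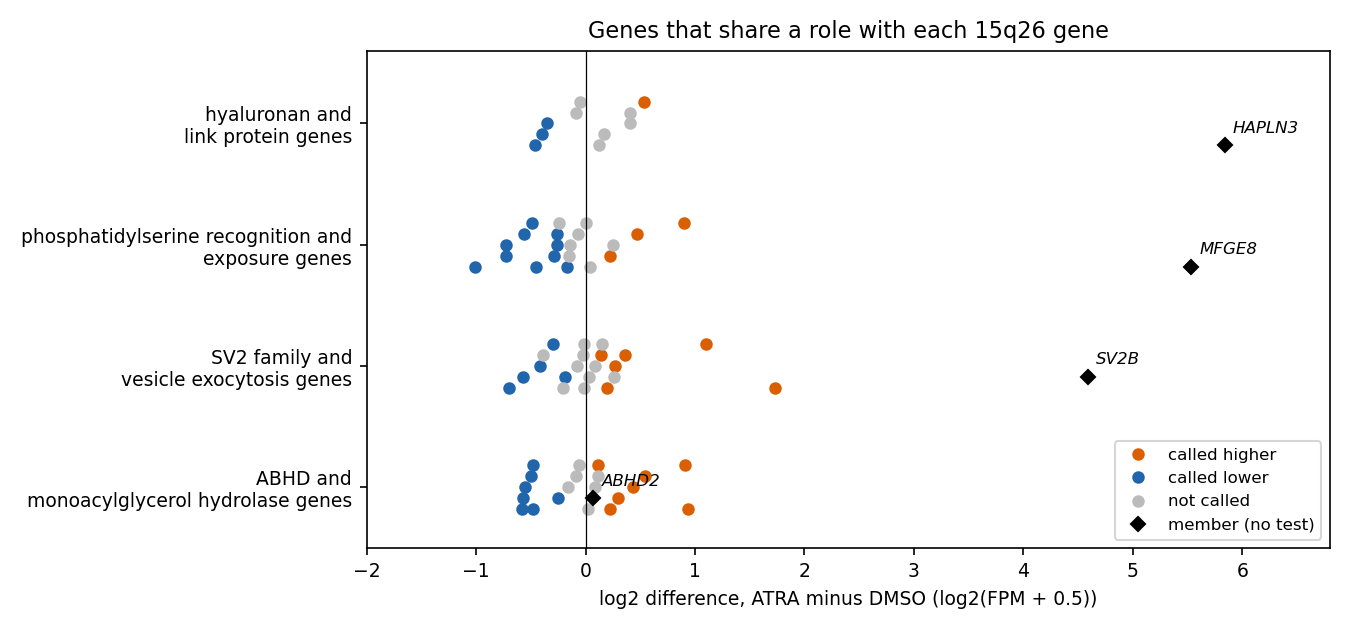
Log2 difference of ATRA over DMSO on the log2(FPM + 0.5) scale for the tested genes of the 4 role lists, with 1 circle per gene coloured by call and a diamond for the member, which has no test. HAPLN3, MFGE8 and SV2B lie at 4.59 to 5.84, beyond SYT2 at 1.73, and ABHD2 lies among its list at 0.07.

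By the root mean square difference of centred log2 levels over the 8 libraries, a description with no test, the gene most like HAPLN3 was CYP26A1 (0.214), followed by MFGE8 (0.28) and ABCB1 (0.456). CYP26A1 degrades retinoic acid and ABCB1 is a drug efflux pump. The genes most like MFGE8 were CYP26A1 (0.202), ABCB1 (0.209) and HAPLN3 (0.28). Those most like SV2B were the Toll-like receptor kinase IRAK2 (0.237), the potassium channel KCNH4 (0.285) and the acyl-CoA synthetase ACSM5 (0.296). For ABHD2 they were DHX30 (0.0266), ADAR (0.03) and PMPCA (0.0322), whose ATRA minus DMSO differences were 0.12, 0.09 and 0.04. CYP26A1, the check of the ATRA treatment, stood at 4316 FPM in ATRA+Cfz, 3815 ± 7.09 FPM in ATRA, 51.4 FPM in Cfz and 83.2 ± 8.46 FPM in DMSO.

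Depth was 14136937 to 17155331 reads per library, and a floor of 3 reads is 0.175 to 0.212 FPM. Counting error alone is behind these intervals and floors. All 6 plasma cell markers were expressed, with a sum of 5466 FPM in ATRA+Cfz, 6323 to 6388 FPM in ATRA, 3220 FPM in Cfz and 3274 to 3654 FPM in DMSO, so the sum was higher in the libraries with ATRA, and its part in the members' levels was not tested. XBP1 and SDC1 carried most of that difference, while IRF4 was lower with ATRA, at 958 FPM in ATRA+Cfz against 1114 FPM in Cfz and a mean of 836 FPM in ATRA against 1140 FPM in DMSO. Markers of T and NK, stromal and epithelial cells summed to at most 3.67 FPM in any library. The myeloid sum, mostly CD68, was 13.2 FPM in ATRA+Cfz, 8.97 to 12.2 FPM in ATRA, 23.1 FPM in Cfz and 10.4 to 13.1 FPM in DMSO. PECAM1, an endothelial marker that plasma cells can also carry, was 2.12 FPM in ATRA+Cfz, 1.66 to 2.15 FPM in ATRA, 6.82 FPM in Cfz and 6.29 to 8.7 FPM in DMSO. DMSO 3 stood apart, differing from the other DMSO libraries by a chi-square of 10.5 and 11 per degree of freedom, where those differed by 1.81. The mitochondrial share of reads was 5.72% in ATRA+Cfz, 3.67% to 3.89% in ATRA, 5.43% in Cfz, and 4.12%, 4.09% and 5.85% in DMSO libraries 1 to 3. Without DMSO 3, ATRA minus DMSO was 5.75 for HAPLN3, 5.59 for MFGE8, 4.61 for SV2B and 0.03 for ABHD2, and 14 neighbours rose and 13 fell.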

How the data were processed

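Total RNA of MM.1S cells was sequenced in 8 libraries over 4 lanes each, 32 samples in all. Per the submitters' processing notes, fastp 0.20.0, kallisto 0.46.2 and DESeq2 were used. Neither genome build nor annotation nor strand setting is given in the sources used here. The authors deposited FPM per lane, a CPM unit, and each column sums to 1000000. Repeated lines of 143 gene IDs held equal values and were used once. Values came out as whole numbers for 100% of entries within 0.01 read, and these numbers are called reads here. Whether they are counted reads or rounded estimates from kallisto was not determined.

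Lanes were averaged per library. Limma 3.58.1 (R 4.3.3) with an intensity trend was fitted to log2(FPM + 0.5) of all 8 libraries, for 15827 genes whose 4 group means averaged at least 0.5 FPM, with 4 residual and 7.2 prior degrees of freedom. A call needed an adjusted p (Benjamini-Hochberg) under 0.05. Single libraries of Cfz and of ATRA+Cfz borrowed the spread of the other groups. The fit was tested on simulated data. On the recovered whole reads, edgeR 4.0.16 called 7748 genes in ATRA against DMSO, against 7704 with limma, and DESeq2 1.42.0 was a further alternative.

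The members and gene lists were chosen with earlier results of these data known. Besides the members, the text names neighbours called with a log2 difference of at least 0.5 in size. It also names the nearest 3 tested genes on each side by start position, the 3 genes most alike per member, and CYP26A1. Of each list it names up to 3 called genes of smallest p per direction, with at least 2 FPM in the higher group. ITGB5, TYRO3, AXL, ACAN and the markers were named outside this rule, after their values were seen. Positions came from GENCODE 29 and promoter sequences from RefSeq (GRCh38.p14). Other pseudocounts, no filter, another scaling, single lanes, left-out libraries, other window sizes and a replicate block were tried.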

Additional observations from a re-analysis of the deposited data

Results flagged for a closer look

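The ATRA difference of CYP26A1 was larger after the carfilzomib pulse than without it, by a log2 of 0.86 ± 0.115 (limma interaction estimate ± SE). Its levels were 4316 FPM in ATRA+Cfz against 51.4 FPM in Cfz, and 3815 ± 7.09 FPM in ATRA against 83.2 ± 8.46 FPM in DMSO (SD, n = 3 each). Cfz minus DMSO was -0.69 ± 0.0813, and ATRA+Cfz minus ATRA was 0.18 ± 0.0813. The lower level in Cfz is thus the larger part of the 0.86. The ATRA+Cfz and Cfz groups have 1 library each, so the difference has no replicate check. For the members, the same term was likewise given without a p-value.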

How the results depend on the processing

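ATRA+Cfz over Cfz kept its direction and its call for HAPLN3 (5.63 to 7.62), MFGE8 (5.37 to 5.78) and SV2B (3.43 to 5.82) in all 17 alternatives, and ABHD2 (-0.06 to 0.06) was called in none. ATRA minus DMSO for HAPLN3 was 6.22 and 5.47 with pseudocounts of 0.1 and 1 FPM, 6.34 with edgeR, 6.35 with DESeq2, and 5.71, 6.31 and 5.70 in lanes 1, 2 and 4 alone. For SV2B it was 5.20 and 4.09 with those pseudocounts, 5.41 with edgeR, 5.44 with DESeq2, and 5.07, 4.52 and 4.40 in lanes 2, 3 and 4 alone. For MFGE8 it was 5.60 with edgeR and with DESeq2, and 5.65 and 5.45 in lanes 2 and 4 alone, and for ABHD2 0.02 and 0.14 in lanes 3 and 4 alone. A pseudocount moves low genes by construction, and low reads limit HAPLN3 and SV2B without ATRA.

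HAPLN3 in Cfz over DMSO lost its call with edgeR (-0.84), DESeq2 (-0.82), lane 1 (-0.50) and lane 2 (-1.28) and reversed in lane 3 (0.41), where its interaction also reversed (-0.31). MFGE8 in Cfz over DMSO lost its call with median-ratio scaling (-0.20), edgeR (-0.23), DESeq2 (-0.21) and lanes 1, 3 and 4 (-0.33, -0.01 and -0.36). MFGE8 in ATRA+Cfz over ATRA lost it with a pseudocount of 0.1 FPM (-0.21), no filter (-0.21), median-ratio scaling (-0.19), edgeR (-0.16) and each lane alone (-0.21, -0.22, -0.21 and -0.18), and over left-out libraries ran from -0.21 to -0.20, losing it without any 1 of the ATRA libraries or DMSO 2. ABHD2 in ATRA+Cfz over ATRA was called in lane 4 alone (-0.20). Single lanes hold fewer reads by construction, and the cause of the other changes was not tested.

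DESeq2 called 2886 genes in ATRA+Cfz against ATRA (limma 4884), 3118 in ATRA+Cfz against Cfz (4818) and 2013 in Cfz against DMSO (3948). Among the lists, hyaluronan genes called higher with ATRA were 2 with median-ratio scaling and with edgeR, and 1 to 4 over left-out libraries (4 without DMSO 2). Vesicle genes called higher were 3 to 7 over left-out libraries (3 without ATRA 3), and ABHD genes 4 to 7 (4 without ATRA 2); these list alternatives were chosen after seeing the data. Neighbours called higher numbered 12 to 15 and lower 8 to 13 over 15 alternatives. Same-numbered ATRA and DMSO libraries did not deviate together (correlations -0.00584, -0.00206 and 0.00555). As DMSO 3 stood apart from the other DMSO libraries, this cannot tell whether the numbers mark pairs. With the replicate block, 7621 genes were called in ATRA against DMSO (7704 without it), 14 neighbours rose and 13 fell (14 and 10 without it).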
